A study of Caenorhabditis elegans with 24 samples.

Results

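Fatty acid synthesis and elongation in whole Caenorhabditis elegans was followed through 9 genes: pod-2, fasn-1, elo-1, elo-2, elo-3, elo-5, elo-6, elo-7 and elo-9. They were picked by gene symbol from the 16927 genes of the expression table. Worms of 2 strains were used, N2, which the labels give as wild type, and VC3201, which is given as an atfs-1 mutant. Each strain received control, cco-1, elt-2, or combined cco-1 and elt-2 RNAi bacteria ("both RNAi" in what follows), and 3 libraries were made per strain and RNAi, 24 in all. Every group came from synchronized eggs that developed on RNAi plates for 2.5 days at 20 °C and was collected whole as L4 larvae or young adults, from RNA enriched for polyA. The product of cco-1 belongs to respiratory complex IV, ELT-2 is a GATA factor that drives intestinal genes, and ATFS-1 activates genes in response to mitochondrial stress. For elt-2 the share of RNAi bacteria fed is 50% by the labels but 25% by the key sheet of the deposited workbook. By the labels cco-1 RNAi bacteria also made up 50%. Groups with a single RNAi were filled up with 50% control bacteria, and both RNAi held no control bacteria. The labels do not say that the 3 replicates of a group were separate cultures, so p-values measure the spread between libraries, which may be technical.

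Fatty acids are built in the cytosol from malonyl-CoA, which acetyl-CoA carboxylase (pod-2) makes and fatty acid synthase (fasn-1) polymerizes into palmitic acid. Elongases (the elo genes) then catalyse the first, condensing step of a cycle at the endoplasmic reticulum that lengthens fatty acids, and desaturases (the fat genes) insert double bonds. In the worm the intestine is a main site of lipid synthesis, and 2 of the elongases, elo-5 and elo-6, serve a separate branch that makes monomethyl branched-chain fatty acids, which larval growth needs.

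On build WBcel235 the genes lie on 3 chromosomes. pod-2 (WBGene00004076) lies on chromosome II from 1136785 to 1152705 on the plus strand, and elo-9 (WBGene00001247) lies on the same chromosome from 14959526 to 14964108 on the minus strand. fasn-1 (WBGene00009342) is on chromosome I from 8975366 to 8986540 on the minus strand. The other 6 are on chromosome IV. elo-5 (WBGene00001243, 5374616 to 5377117, minus strand) and elo-6 (WBGene00001244, 5386629 to 5388559, minus strand) are 9511 bases apart with 3 other protein-coding genes between them. elo-1 (WBGene00001239, 9526366 to 9528336, plus strand) and elo-7 (WBGene00001245, 9529947 to 9531400, plus strand) are 1610 bases apart with no protein-coding gene between them. elo-3 (WBGene00001241) runs from 7237718 to 7240488 on the plus strand and elo-2 (WBGene00001240) from 17466062 to 17467408 on the minus strand. Parts of 4 of the genes overlap exons of a protein-coding gene on the other strand, and the sources used here do not say whether reads were counted by strand, so that reads in the shared bases cannot be assigned. The overlap covers 17.57% of the exon bases of elo-5 (with F41H10.3), 5.6% of elo-7 (with F56H11.2), 2.81% of elo-3 (with gstk-2) and 2.03% of pod-2 (with W09B6.4).

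Expression is given as CPM, reads of a gene relative to all reads of its library, after quantile normalization across the libraries, so that original library totals are lost. From the ties among low values, 1 CPM stood for about 13 to 14 reads in N2 control libraries and 8 to 10 in VC3201 control libraries, but for 34 to 36 in VC3201 elt-2 RNAi libraries and 38 to 39 with both RNAi. cco-1 was at a mean of 291.8 CPM in N2 control worms, 127.6 with cco-1 RNAi and 72.9 with both RNAi, and at 345.8, 124.8 and 67.4 CPM in VC3201. elt-2 was at 17.3, 10.5 and 8.35 CPM in N2 with control, elt-2 and both RNAi, and at 16.95, 10.45 and 9.05 CPM in VC3201, and atfs-1 was at 20.45 to 27.3 CPM in VC3201 groups against 74.5 to 83.6 in N2. Marker genes of whole tissues also differed between groups. In VC3201 worms with elt-2 RNAi the 6 yolk protein genes, all lower than on control RNAi, summed to 388 to 481 CPM per library (69400 to 69800 on control RNAi), with 1 of the 6 under 1 CPM. All 8 oocyte markers were lower and summed to 3470 to 3720 CPM (6830 to 7180 on control), all 8 sperm markers were higher and summed to 554 to 583 CPM (102 to 115), 6 of 8 hypodermal and cuticle markers were higher and 2 lower, and of 10 intestinal markers 4 were higher and 6 lower, with a sum of 2980 to 3160 CPM (6080 to 7100). With both RNAi in VC3201 the sums lay further from control, at 234 to 262 CPM for yolk, 2030 to 2190 for oocyte and 2370 to 2540 for intestinal markers, but not for sperm markers, at 537 to 543. In N2 the yolk genes were called lower in 5 of 6 cases with elt-2 RNAi, to a sum of 25700 to 27000 CPM (73600 to 73900 on control). The exception, vit-6, was at a mean of 19460 CPM in every N2 group. Quantile normalization gives the same value to the same rank, so that a change of vit-6 may be hidden. With elt-2 RNAi, N2 oocyte markers were 2 higher and none lower among 8, with 112 to 124 CPM of sperm markers (61.8 to 76.2). The hypodermal and cuticle markers had a median log2 fold change of 4.16 with elt-2 RNAi in VC3201 and of -0.09 in N2. The part of these shifts in the results on the 9 genes was not tested. In whole-worm RNA, fewer cells of a type and less RNA per cell cannot be told apart. Worms were collected as L4 larvae or young adults, so a stage difference between groups cannot be told apart from effects of strain or RNAi.

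**Figure D1:**
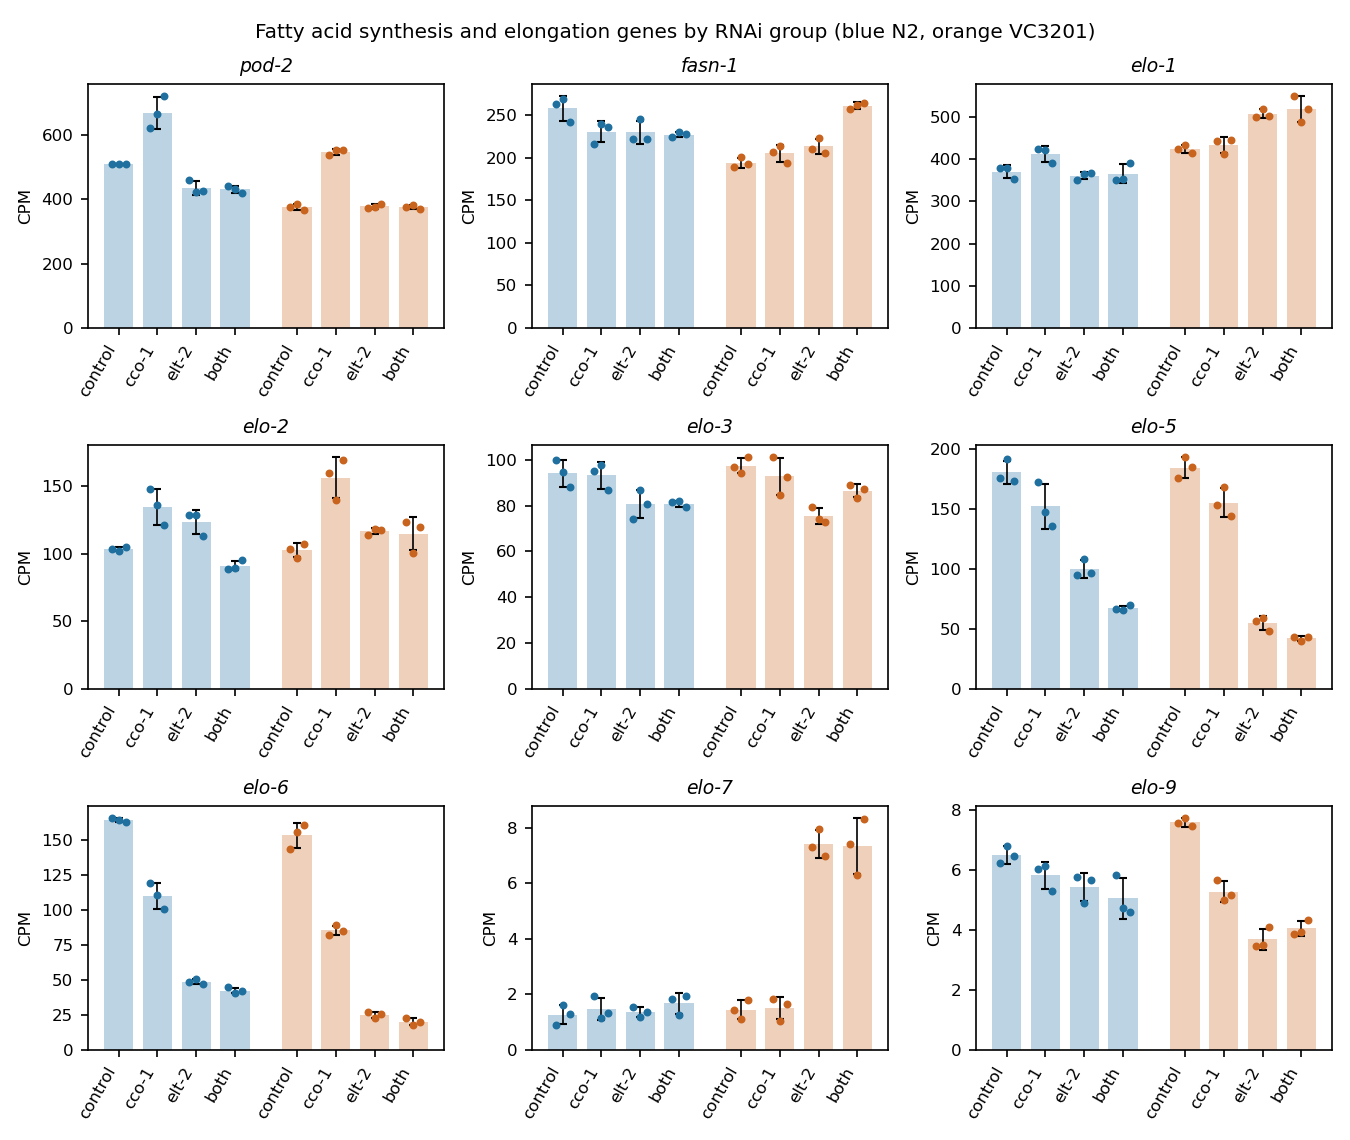
CPM of the 9 genes in each group, with N2 in blue and VC3201 in orange. Bars are means, whiskers are SD (n = 3) and points are libraries. elo-5 and elo-6 step down from control to both RNAi in either strain, elo-7 is near 7 CPM in VC3201 with elt-2 or both RNAi and under 2 CPM in the other groups, and pod-2 is highest with cco-1 RNAi.

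Levels between genes were compared per kilobase of exon. In N2 control worms elo-1 had the highest value, 349 ± 14.7 CPM per kb (SD, n = 3), followed by elo-5 with 196 ± 10.5, elo-6 with 178 ± 1.5, elo-2 with 99.6 ± 1.42, pod-2 with 74.4 ± 0.185, elo-3 with 60.2 ± 3.78 and fasn-1 with 30.6 ± 1.7. elo-9 at 5.59 ± 0.251 and elo-7 at 1.11 ± 0.307 CPM per kb were far below these. In VC3201 worms with both RNAi, elo-1 was again the highest at 489 ± 29.1 CPM per kb, while elo-5 was at 45.6 ± 2.28 and elo-6 at 21.7 ± 2.9, below fasn-1 at 30.9 ± 0.477. The ratio of the highest to the lowest of the 8 group means was 8.19 for elo-6, 5.84 for elo-7 and 4.39 for elo-5, and it was between 1.29 (elo-3) and 2.06 (elo-9) for the other 6 genes.

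pod-2 rose with cco-1 RNAi in both strains, and when elt-2 RNAi was also present no such rise was called. pod-2 encodes acetyl-CoA carboxylase, the committed step of fatty acid synthesis. In N2 its libraries read 509.7, 511 and 509 CPM on control RNAi and 622, 666 and 722 on cco-1 RNAi. With elt-2 RNAi they read 459.8, 421 and 425, and with both RNAi 442, 432 and 418. The cco-1 libraries lay above all others, and those with elt-2 RNAi lay below control whether or not cco-1 RNAi was present. In VC3201 the libraries read 378, 384 and 366 CPM on control, 538, 554 and 553 on cco-1, 372, 376 and 385 on elt-2 and 376, 383 and 369 on both RNAi, so that only the cco-1 group stood apart from the other 3 as deposited. After rescaling each library by the median of its ratios, elt-2 RNAi raised pod-2 over control by 0.25 in VC3201 (adjusted p = 2.05e-05). The log2 fold change of cco-1 RNAi against control was 0.39 ± 0.047 (SE) in N2 (adjusted p = 1.46e-07) and 0.54 ± 0.047 in VC3201 (adjusted p = 8.19e-11). On an elt-2 RNAi background, adding cco-1 RNAi gave a difference of 95% interval -0.11 to 0.08 in N2 and -0.1 to 0.09 in VC3201. The difference between the cco-1 responses with and without elt-2 RNAi, tested as an interaction, was -0.41 ± 0.067 in N2 (adjusted p = 5.19e-05) and -0.55 ± 0.067 in VC3201 (adjusted p = 1.4e-07). cco-1 mRNA itself was also lower with elt-2 RNAi alone than on control, at 234.5 CPM in N2 (-0.31 ± 0.077, adjusted p = 0.00123). In VC3201 it was at 267.2 CPM with elt-2 RNAi alone (-0.37 ± 0.077, adjusted p = 6.53e-05). By the means given above, it was least abundant under combined RNAi in either strain. The part of the cco-1 level in the pod-2 pattern was not tested.

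elo-2, whose product lengthens palmitic to stearic acid, followed pod-2 in its response to cco-1 RNAi. N2 libraries held 103, 102 and 105 CPM on control RNAi, 148, 136 and 121 on cco-1, 128, 128 and 113 on elt-2, and 89.0, 89.1 and 95.3 on both RNAi. The 3 libraries with both RNAi were the lowest of the 12 N2 libraries. VC3201 libraries held 103, 96.8 and 107 CPM on control, 159.9, 139 and 169 on cco-1, 114, 118 and 117 on elt-2, and 124, 101 and 119.9 on both RNAi. cco-1 RNAi raised elo-2 by a log2 fold change of 0.375 ± 0.074 in N2 (adjusted p = 0.000203) and 0.60 ± 0.074 in VC3201 (adjusted p = 6.39e-08). With elt-2 RNAi present, cco-1 RNAi lowered elo-2 by 0.43 on the log2 scale in N2 (-0.43 ± 0.074, adjusted p = 8.03e-05) and left a difference of 95% interval -0.18 to 0.12 in VC3201. The interaction was -0.805 ± 0.104 in N2 (adjusted p = 1.36e-06) and -0.63 ± 0.104 in VC3201 (adjusted p = 1.98e-05). elt-2 RNAi alone raised elo-2 by 0.25 ± 0.074 in N2 (adjusted p = 0.00628) and by 0.19 ± 0.074 in VC3201 (adjusted p = 0.0217). The VC3201 value was 0.15 (adjusted p = 0.101) without replicate 2 of the control and 0.17 (adjusted p = 0.0579) without replicate 2 of elt-2 RNAi. Intestinal markers, in sum 5690 to 5770 CPM in N2 control libraries, summed to 10100 to 10300 with cco-1 RNAi (4 of 10 called higher and 3 lower), and to 5360 to 5490 with both RNAi, and their part in the pod-2 and elo-2 patterns was not tested.

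**Figure D2:**
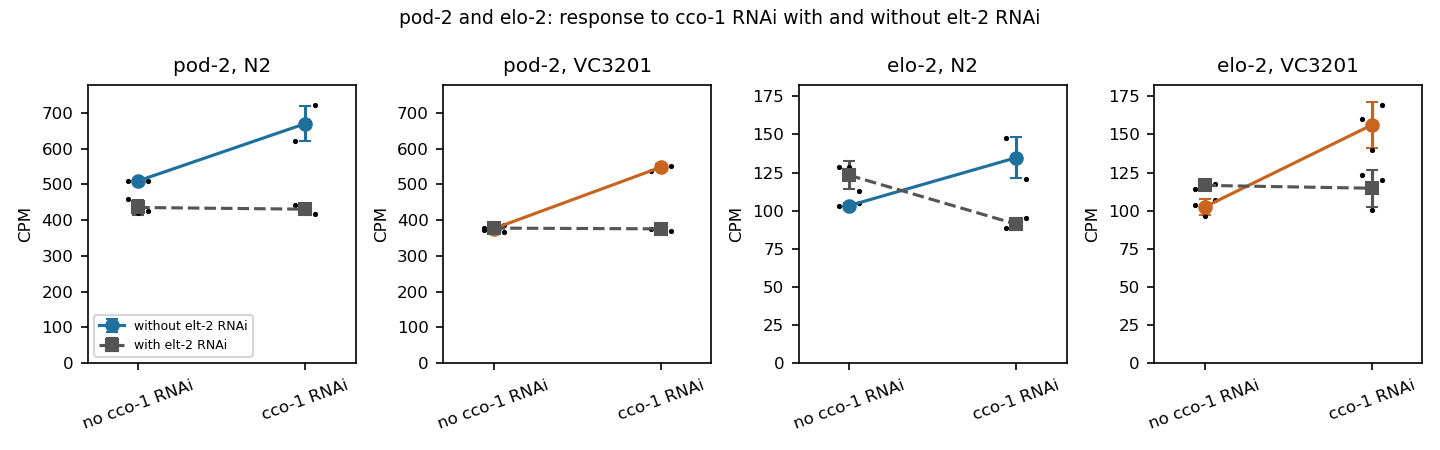
CPM of pod-2 and elo-2 without and with cco-1 RNAi, in worms without elt-2 RNAi (circles, solid line) and with it (squares, dashed line), per strain. Symbols are means, whiskers are SD (n = 3) and small dots are libraries. The solid lines rise in all 4 panels, the dashed lines of pod-2 are level, and that of elo-2 falls in N2.

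fasn-1, the fatty acid synthase that acts directly after acetyl-CoA carboxylase, did not follow pod-2. N2 libraries held 264, 269 and 242 CPM on control RNAi, 217, 239.6 and 236 on cco-1, 222, 246 and 222 on elt-2, and 224, 229.8 and 228 on both RNAi. All 3 cco-1 libraries and all 3 with both RNAi lay below the control libraries, and 1 elt-2 library overlapped them. The fall with cco-1 RNAi was -0.16 ± 0.052 on the log2 scale (adjusted p = 0.0164), and it missed the threshold without control replicate 1 (-0.15, adjusted p = 0.0625), control replicate 2 (-0.13, adjusted p = 0.0887) or cco-1 replicate 1 (-0.12, adjusted p = 0.118). The fall with elt-2 RNAi was -0.17 ± 0.052 (adjusted p = 0.00896), and -0.14 (adjusted p = 0.0577) without control replicate 2. In VC3201 the libraries held 189.6, 201 and 193 CPM on control, 207, 214 and 194 on cco-1, 211, 224 and 206 on elt-2, and 257, 262 and 265 on both RNAi. Here both RNAi stood above every other VC3201 group, by 0.35 ± 0.052 over cco-1 RNAi (adjusted p = 6.08e-07) and by 0.29 ± 0.052 over elt-2 RNAi (adjusted p = 7.61e-05). The smaller difference of elt-2 RNAi from control, 0.13 ± 0.052 (adjusted p = 0.0189), was 0.12 (adjusted p = 0.07) without control replicate 1 and 0.10 (adjusted p = 0.11) without elt-2 replicate 2.

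elo-1, an elongase needed to make the long polyunsaturated fatty acids, was highest in VC3201 with both RNAi and with elt-2 RNAi alone, whose libraries overlapped. N2 libraries held 379, 379 and 352 CPM on control RNAi, 425, 421 and 392 on cco-1, 351, 364 and 367 on elt-2, and 351, 354 and 392 on both RNAi. VC3201 libraries held 424, 434 and 416 on control, 444, 413 and 445 on cco-1, 499.9, 519.9 and 503 on elt-2, and 549.7, 488 and 519.9 on both RNAi, so that all 6 libraries with elt-2 RNAi lay above the other 6. elt-2 RNAi raised elo-1 by 0.26 ± 0.052 on the log2 scale in VC3201 (adjusted p = 4.23e-05), and in N2 the difference had a 95% interval of -0.14 to 0.07. cco-1 RNAi gave 0.16 ± 0.052 in N2 (adjusted p = 0.0193), which missed the threshold without control replicate 3 (0.12, adjusted p = 0.112), cco-1 replicate 1 (0.135, adjusted p = 0.0817) or cco-1 replicate 2 (0.14, adjusted p = 0.0744).

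elo-5 and elo-6, the elongases of the branched-chain branch, fell most steeply with elt-2 RNAi, and more in VC3201 than in N2. elo-6 lengthens the shorter of the iso-branched fatty acids, and elo-5 is needed for both of the main ones. elo-6 libraries of N2 held 166, 165 and 163 CPM on control RNAi, 119, 111 and 101 on cco-1, 48.4, 50.7 and 46.9 on elt-2, and 44.6, 40.4 and 42.3 on both RNAi. In VC3201 they held 144, 156 and 161 on control, 82.4, 89.1 and 85.1 on cco-1, 27.2, 22.7 and 25.4 on elt-2, and 22.8, 17.4 and 20.1 on both RNAi. Ordered by mean, the 8 groups of elo-6 did not overlap with the next group in 6 of 7 neighbouring pairs, the exception being elt-2 and both RNAi in VC3201. The same order for elo-5 ran from VC3201 control (185 ± 8.72 CPM) and N2 control (181 ± 9.71), which overlapped, through cco-1 RNAi in VC3201 (155 ± 12.2) and N2 (152 ± 18.7), which also overlapped, to elt-2 RNAi in N2 (100.2 ± 7.44), both RNAi in N2 (67.2 ± 2.15), elt-2 RNAi in VC3201 (54.6 ± 5.93) and both RNAi in VC3201 (42.0 ± 2.11), with no overlap among the last 4 groups.

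elt-2 RNAi lowered elo-6 by a log2 fold change of -1.74 ± 0.074 in N2 (adjusted p = 4.73e-18) and -2.57 ± 0.074 in VC3201 (adjusted p = 9.38e-23). For elo-5 the values were -0.84 ± 0.077 in N2 (adjusted p = 1.93e-10) and -1.745 ± 0.077 in VC3201 (adjusted p = 2.69e-18). The difference between strains, tested as an interaction, was -0.83 ± 0.105 for elo-6 (adjusted p = 5.62e-08) and -0.90 ± 0.11 for elo-5 (adjusted p = 2.78e-08). In VC3201, where elt-2 RNAi moved the median gene by -0.18 on the log2 scale as deposited and by 0.04 after rescaling each library to the median of its ratios, the rescaled falls were -2.33 for elo-6 and -1.50 for elo-5. The level of elt-2 itself differed between the VC3201 elt-2 libraries, at 6.52, 8.84 and 15.98 CPM, and the third of these held 47.8 CPM of elo-5, the lowest of its group, and 25.4 CPM of elo-6, the middle value. Without it the strain differences were -0.81 for elo-5 and -0.84 for elo-6, both still called. cco-1 RNAi also lowered elo-6, by -0.58 ± 0.074 in N2 (adjusted p = 3.89e-07) and -0.84 ± 0.074 in VC3201 (adjusted p = 1.14e-10).

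elo-5 fell less with cco-1 RNAi, by -0.25 ± 0.077 in N2 (adjusted p = 0.0121) and -0.25 ± 0.077 in VC3201 (adjusted p = 0.0063). The N2 value missed the threshold without control replicate 2 (-0.21, adjusted p = 0.0662) or cco-1 replicate 3 (-0.18, adjusted p = 0.108), and the VC3201 value was -0.16 (adjusted p = 0.0741) after rescaling. On an elt-2 RNAi background in N2, cco-1 RNAi lowered elo-5 by -0.57 ± 0.077 (adjusted p = 2.39e-06). The elo-6 difference of -0.19 ± 0.074 missed the threshold (adjusted p = 0.067), but it passed when only the groups compared were fitted (adjusted p = 0.0193). The 2 genes were not tested against each other. The elo-6 interaction of cco-1 with elt-2 RNAi was 0.385 ± 0.105 in N2 (adjusted p = 0.0121) and 0.53 ± 0.105 in VC3201 (adjusted p = 0.000196), and the N2 value was 0.32 (adjusted p = 0.0513) without cco-1 replicate 3. For elo-5 it was -0.32 ± 0.11 in N2 (adjusted p = 0.053), which did not pass. F41H10.3, the gene that overlaps elo-5 on the other strand, was at a mean of 201 CPM in N2 control and 213 with elt-2 RNAi, and at 238 and 127 CPM in VC3201.

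**Figure D3:**
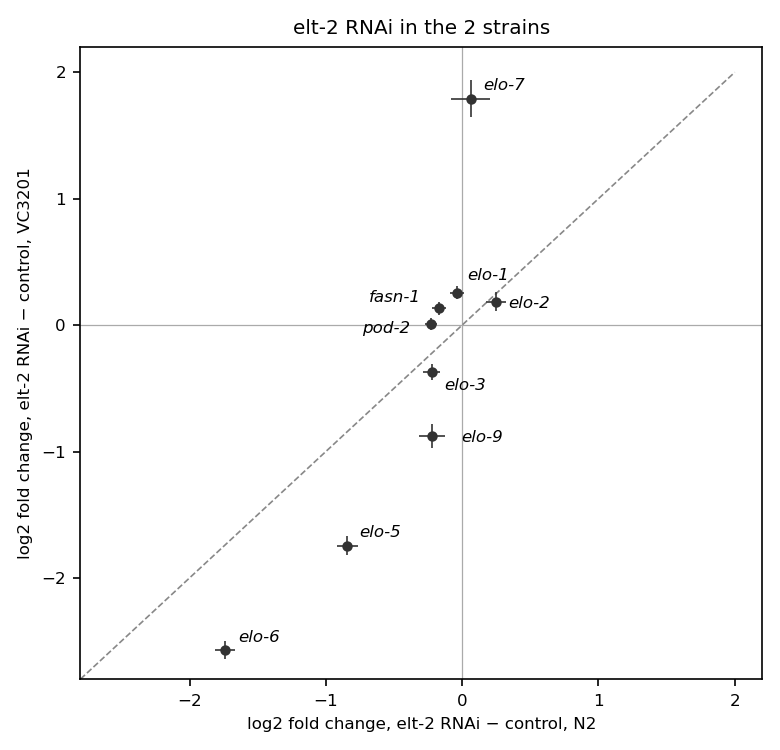
Log2 fold change of elt-2 RNAi against control in N2 (horizontal) and VC3201 (vertical) for the 9 genes, with SE whiskers and a dashed line of equal change. elo-5, elo-6 and elo-9 lie well below the line, elo-7 far above it, and elo-2 and elo-3 closest to it.

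elo-7, a member of the elongase family, was low in 6 groups and higher in the other 2. On control RNAi it was at 0.906, 1.61 and 1.29 CPM in N2 and 1.43, 1.12 and 1.79 in VC3201. With elt-2 RNAi it was at 1.52, 1.17 and 1.36 CPM in N2 but at 7.31, 7.96 and 6.97 in VC3201, and with both RNAi at 1.82, 1.25 and 1.94 in N2 but at 7.40, 6.31 and 8.32 in VC3201. The 6 VC3201 libraries with elt-2 RNAi did not overlap with the other 18. Placed by rank among the tied low values, these 6 libraries corresponded to about 231 to 290 reads and the other 18 to 11 to 46. The log2 fold change of elt-2 RNAi in VC3201 was 1.79 ± 0.15 (adjusted p = 3.49e-12), on a log2(CPM + 1) scale that understates the change of low genes, and the authors' deposited table gives 2.38. In N2 the difference had a 95% interval of -0.24 to 0.36, and the interaction with strain was 1.73 ± 0.21 (adjusted p = 2.09e-08). The sperm markers moved alongside elo-7 in VC3201, from 102 to 115 CPM in sum on control to 554 to 583 with elt-2 RNAi and 537 to 543 with both, and their part in the result was not tested. In N2 the same markers rose less with elt-2 RNAi, 8 of 8, by a median log2 fold change of 0.61 against 2.01 in VC3201. F56H11.2, which overlaps elo-7, was at a mean of 1.1 CPM on control and 3.02 with elt-2 RNAi in VC3201.

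elo-9, another elongase family member of low level, moved the opposite way in VC3201. Its libraries held 7.56, 7.72 and 7.45 CPM on control RNAi, 5.66, 5.0 and 5.15 on cco-1, 3.46, 3.49 and 4.08 on elt-2, and 3.86, 3.94 and 4.34 on both RNAi. The control libraries lay above all others and those with elt-2 RNAi below those without. N2 libraries held 6.23, 6.81 and 6.44 CPM on control, 6.04, 6.11 and 5.28 on cco-1, 5.74, 4.91 and 5.65 on elt-2, and 5.84, 4.73 and 4.58 on both RNAi. In VC3201 the log2 fold change was -0.45 ± 0.094 with cco-1 RNAi (adjusted p = 0.000156) and -0.88 ± 0.094 with elt-2 RNAi (adjusted p = 1.28e-09). In N2 they were -0.14 ± 0.094 (adjusted p = 0.274) and -0.22 ± 0.094 (adjusted p = 0.0541), neither called. The N2 value for elt-2 RNAi passed with a pseudocount of 5 (-0.14, adjusted p = 0.0368) and with precision weights (-0.22, adjusted p = 0.0437). The elo-9 response to elt-2 RNAi differed between strains by -0.655 ± 0.13 (adjusted p = 8.03e-05). The 8 oocyte markers fell in VC3201 with cco-1 RNAi (8 of 8, sum 5090 to 5290 CPM) and with elt-2 RNAi (8 of 8), the groups in which elo-9 fell. From elt-2 RNAi to both RNAi in VC3201 all 8 fell further, with a median log2 fold change of -0.725. elo-9 did not fall there, with means of 3.68 CPM on elt-2 RNAi and 4.05 on both RNAi, a difference not called. The part of the oocyte markers was not tested.

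elo-3, a further member of the elongase family, had the smallest spread between groups. N2 libraries held 99.96, 94.6 and 88.1 CPM on control RNAi, 95.0, 97.9 and 86.8 on cco-1, 74.4, 86.9 and 80.9 on elt-2, and 81.5, 81.9 and 79.4 on both RNAi. In VC3201 they held 97.1, 94.3 and 101 on control, 101, 84.7 and 92.4 on cco-1, 79.3, 74.1 and 72.7 on elt-2, and 88.8, 83.4 and 87.2 on both RNAi. elt-2 RNAi lowered it by -0.22 ± 0.063 in N2 (adjusted p = 0.00443) and -0.37 ± 0.063 in VC3201 (adjusted p = 4.55e-06), and the VC3201 value was -0.12 (adjusted p = 0.0697) after rescaling. cco-1 RNAi left a difference with a 95% interval of -0.14 to 0.11 in N2 and -0.2 to 0.05 in VC3201. Of the 7 neighbouring pairs of groups in the order of its means, 6 overlapped, as they did for elo-2 and elo-7.

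**Figure D4:**
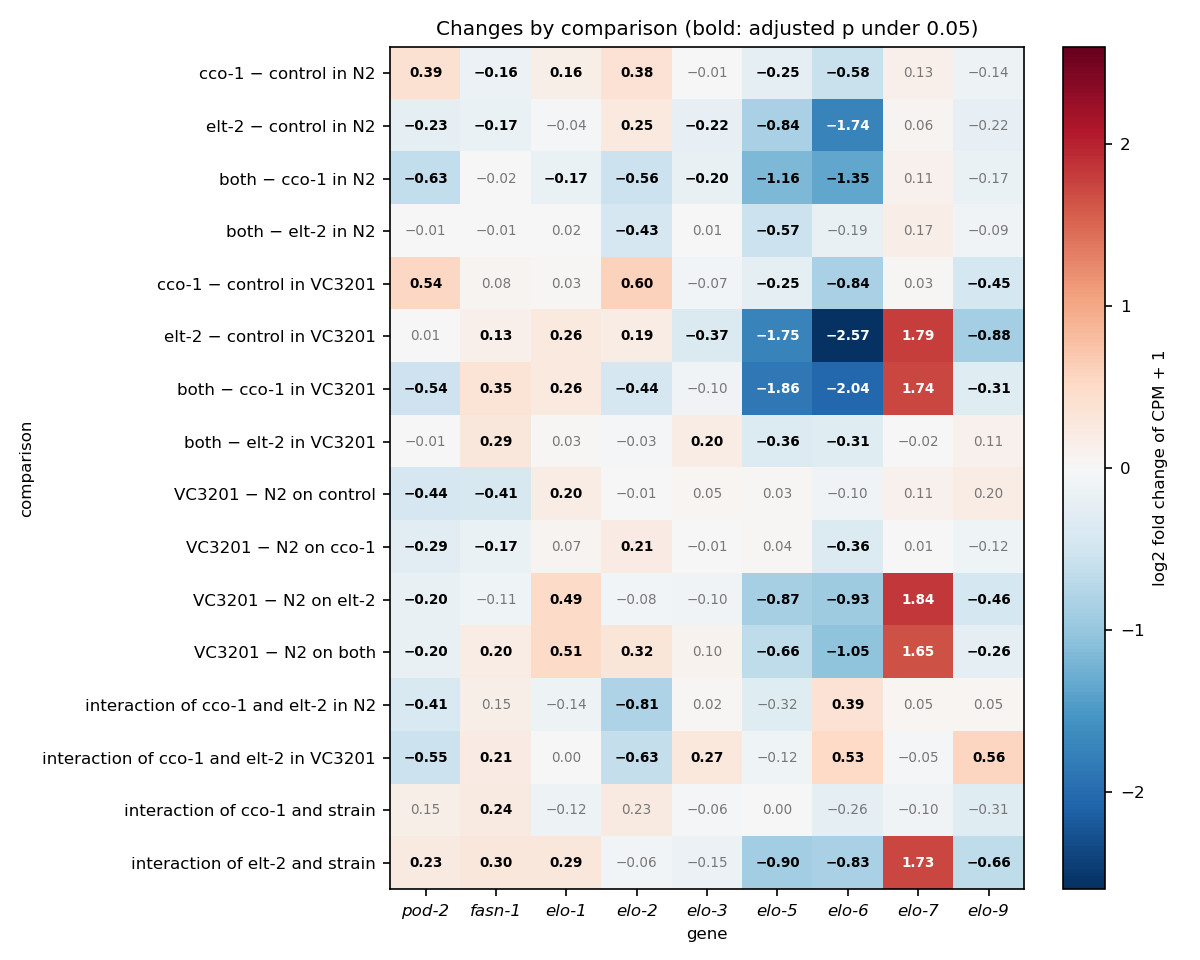
Log2 fold change of CPM + 1 for the 9 genes (columns) in the 16 comparisons and interactions (rows), red for higher and blue for lower, with called values in bold. The elo-5 and elo-6 columns are blue in every comparison of elt-2 RNAi with its control, and pod-2 and elo-2 turn from red with cco-1 RNAi to blue in the rows of both RNAi against cco-1 RNAi.

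Counted over comparisons, cco-1 RNAi in N2 raised 3 of the 9 genes (pod-2, elo-1, elo-2) and lowered 3 (fasn-1, elo-5, elo-6), while 33.8% of the 14561 genes tested were called in either direction. In VC3201 it raised 2 and lowered 3, against 64% of all genes called, and 42.1% of those calls were higher as deposited and 53.2% after rescaling. elt-2 RNAi in N2 raised 1 (elo-2) and lowered 5, against a background of 48% (median log2 fold change of the 9 genes -0.22, of all genes 0.02), and in VC3201 it raised 4 and lowered 4, against 85.8%. With both RNAi compared with cco-1 RNAi, 6 genes were lower in N2 and none higher, against 34.1%, and 3 were higher and 5 lower in VC3201, against 81.1%. With both RNAi compared with elt-2 RNAi, 2 were lower in N2 (elo-2, elo-5), against 19.2%, and 2 were higher and 2 lower in VC3201, against 31.2%. The share of the 9 genes called was near or above the background in N2, and in VC3201 with elt-2 RNAi most genes of the worm were called. These comparisons share libraries (the same control, cco-1 and both-RNAi groups), so that they are not independent of each other.

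The other calls of both RNAi against cco-1 RNAi differed in size and direction between the genes. In N2 elo-5 fell by -1.16 ± 0.077 and elo-6 by -1.35 ± 0.074, and in VC3201 by -1.86 ± 0.077 and -2.04 ± 0.074. pod-2 fell by -0.63 ± 0.047 in N2 and -0.54 ± 0.047 in VC3201, and elo-2 by -0.555 ± 0.074 and -0.44 ± 0.074. elo-1 fell in N2 (-0.175 ± 0.052, adjusted p = 0.0084) and rose in VC3201 (0.26 ± 0.052, adjusted p = 4.83e-05), and the N2 value was -0.15 (adjusted p = 0.0547) without replicate 1 of both RNAi. elo-3 fell in N2 (-0.20 ± 0.063, adjusted p = 0.0132), which did not hold without cco-1 replicate 2 (-0.165, adjusted p = 0.0763) or both-RNAi replicate 3 (-0.19, adjusted p = 0.0506). elo-9 fell in VC3201 by -0.31 ± 0.094 (adjusted p = 0.00357), and by -0.16 after rescaling (adjusted p = 0.132). elo-7 rose in VC3201 by 1.74 ± 0.15. In the comparison of both with elt-2 RNAi in VC3201, elo-5 was lower by -0.365 ± 0.077 and elo-6 by -0.31 ± 0.074, and elo-3 was higher by 0.20 ± 0.063 (adjusted p = 0.0168), a call that did not hold without elt-2 replicate 2 or 3 or both-RNAi replicate 1 or 3 (0.17 to 0.19).

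The strains already differed on control RNAi in the synthesis genes. pod-2 was lower in VC3201 by -0.44 ± 0.047 (adjusted p = 1.4e-08) and fasn-1 by -0.41 ± 0.052 (adjusted p = 2.6e-07), and elo-1 was higher by 0.20 ± 0.052 (adjusted p = 0.00233), so 3 of 9 were called against 49.3% of all genes. elo-5 differed by a 95% interval of -0.13 to 0.19 and elo-6 by -0.25 to 0.05. Marker genes also differed between the strains on control RNAi. In VC3201, 7 of 8 hypodermal and cuticle markers were lower and 0 higher (median log2 fold change -2.18). Of 8 sperm markers 5 were higher and 1 lower, and the part of the markers in the pod-2, fasn-1 and elo-1 differences was not tested. On cco-1 RNAi, 1 gene was higher and 3 lower in VC3201, against a background of 55.8%: pod-2 (-0.29 ± 0.047), fasn-1 (-0.17 ± 0.052) and elo-6 (-0.36 ± 0.074) were lower and elo-2 (0.21 ± 0.074, adjusted p = 0.0166) was higher. Without cco-1 replicate 3 of VC3201 only 2 of these were called, since elo-2 (0.15, adjusted p = 0.116) and fasn-1 (-0.13, adjusted p = 0.0558) missed the threshold. The elo-2 call was also lost without cco-1 replicate 3 of N2 (0.14, adjusted p = 0.148) or cco-1 replicate 1 of VC3201 (0.19, adjusted p = 0.0555), and fasn-1 was at -0.10 after rescaling (adjusted p = 0.0905).

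On elt-2 RNAi, elo-1 (0.49 ± 0.052) and elo-7 (1.84 ± 0.15) were higher in VC3201 than in N2 and elo-5 (-0.87 ± 0.077), elo-6 (-0.93 ± 0.074), elo-9 (-0.46 ± 0.094) and pod-2 (-0.20 ± 0.047) lower, 6 of 9 against 77.9%. With both RNAi 4 were higher and 4 lower, against 80.4%, and here elo-2 (0.32 ± 0.074) and fasn-1 (0.20 ± 0.052) were among the higher. The pod-2 differences depended on the scaling: after rescaling, pod-2 was at 0.00 on elt-2 RNAi (adjusted p = 0.998) and at 0.03 on both RNAi (adjusted p = 0.599), and in VC3201 elt-2 RNAi then raised pod-2 by 0.25 over control (adjusted p = 2.05e-05). The elo-9 call on both RNAi (-0.26, adjusted p = 0.0146) was at -0.07 after rescaling (adjusted p = 0.479), and it was lost without both-RNAi replicate 1 of N2 (-0.17, adjusted p = 0.132) or of VC3201 (-0.23, adjusted p = 0.0521). Calls in higher direction made up 42.5% of all calls on elt-2 RNAi and 45% on both RNAi, and 54.9% and 56.2% after rescaling, which moved the median of all genes from -0.105 to 0.06 and from -0.08 to 0.10.

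The interaction of cco-1 with elt-2 RNAi was called for 3 of 9 genes in N2 (pod-2, elo-2, elo-6), against 13% of all genes, and for 6 of 9 in VC3201, against 41.1%. In VC3201 the called genes included elo-9 at 0.56 ± 0.13 (adjusted p = 0.00126), for which cco-1 RNAi lowered the level without elt-2 RNAi and left a 95% interval of -0.08 to 0.3 on elt-2 RNAi. The VC3201 calls of fasn-1 (0.215 ± 0.073, adjusted p = 0.0203) and elo-3 (0.27 ± 0.089, adjusted p = 0.0156) were at 0.16 (adjusted p = 0.075) and 0.22 (adjusted p = 0.05) after rescaling. The fasn-1 call was also lost without control replicate 2 (0.19, adjusted p = 0.0553), cco-1 replicate 3 (0.175, adjusted p = 0.0673) or elt-2 replicate 3 (0.19, adjusted p = 0.0557), and the elo-3 call without cco-1 replicate 2 (0.21, adjusted p = 0.0571). The response to cco-1 RNAi differed between strains for 1 gene, fasn-1 (0.24 ± 0.073, adjusted p = 0.0111), against 40% of all genes. That count was 2 to 4 without cco-1 replicate 1 or 3 of N2, control replicate 1 of VC3201 or cco-1 replicate 1 or 2 of VC3201, with elo-6 (adjusted p = 0.0506 with all libraries), elo-9, elo-2 or pod-2 added. The response to elt-2 RNAi differed for 7 of 9, against 72.8%.

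The rest of the elongation cycle moved partly with elo-5 and elo-6. let-767, art-1 and hpo-8, which encode the reductase, enoyl reductase and dehydratase type enzymes of the cycle, were all lower with elt-2 RNAi, and elo-4 and elo-8 complete the list of 5. let-767 went from 304 ± 14.3 to 162 ± 7.49 CPM in N2 and from 268 ± 7.15 to 171 ± 5.98 in VC3201. hpo-8 went from 132 ± 3.66 to 78.0 ± 4.31 and from 138 ± 9.64 to 73.8 ± 6.36, and art-1 from 302 ± 21.3 to 224 ± 17.7 and from 274 ± 20.3 to 163 ± 9.18. In N2 elt-2 RNAi lowered 3 of 5 and raised none (median log2 fold change -0.43, against 0.02 for all genes), and in VC3201 it lowered 3 and raised 2 (-0.64, against -0.18). elo-8 was one of those raised in VC3201, from 1.535 ± 0.217 to 10.8 ± 0.592 CPM. cco-1 RNAi raised 2 and lowered 1 in N2 and raised 1 and lowered 1 in VC3201. Over all genes, elt-2 RNAi had calls for 48% in N2 and 85.8% in VC3201, and cco-1 RNAi for 33.8% and 64%; the counts of this list and of the following lists stand against these shares.

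Of the genes that supply branched-chain precursors, 3 of 6 listed were found under the symbols used, bcat-1, dld-1 and acs-1, and elt-2 RNAi raised 1 and lowered 2 in either strain. acs-1, an acyl-CoA synthetase that acts on branched-chain fatty acids, held 234 ± 8.9 CPM on control and 91.9 ± 1.89 on elt-2 RNAi in N2 (-1.34 ± 0.047, adjusted p = 4.69e-20) and 174 ± 8.24 and 74.6 ± 2.43 in VC3201 (-1.21 ± 0.047, adjusted p = 1.28e-19). Its difference between strains was 0.12 ± 0.067 (adjusted p = 0.0946), whereas those of elo-5 and elo-6 were called. bcat-1, the branched-chain aminotransferase, rose from 223 ± 3.44 to 346 ± 35.1 CPM in N2 and from 215 ± 9.73 to 446 ± 13 in VC3201.

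Among 4 genes that supply malonyl-CoA or control it (acly-1, acly-2, mlcd-1, bpl-1), cco-1 RNAi raised 2 in N2 and lowered 2 in VC3201. acly-1, an ATP citrate lyase that provides acetyl-CoA for pod-2, rose in N2 from 222 ± 4.47 to 296 ± 8.59 CPM (0.41 ± 0.045, adjusted p = 2.7e-08) and fell in VC3201 from 231 ± 7.31 to 134 ± 7.75 (-0.78 ± 0.045, adjusted p = 1.19e-14), so that it moved with pod-2 in N2 and against it in VC3201. elt-2 RNAi raised 2 and lowered 1 in N2 and raised 1 and lowered 3 in VC3201, where 85.8% of all genes were called. Of 7 lipid regulators, cco-1 RNAi lowered 1 in N2 (sbp-1) and raised 2 and lowered 3 in VC3201, and elt-2 RNAi raised 1 and lowered 3 in N2 and raised 2 and lowered 4 in VC3201. Of all genes 33.8% and 64% were called with cco-1 RNAi and 48% and 85.8% with elt-2 RNAi, so that the regulator counts are near the background or below it. The supply counts, over only 4 genes, lay above these shares except with cco-1 RNAi in VC3201. sbp-1, the worm SREBP, a factor that controls lipid synthesis genes, had 56.3 ± 0.615 CPM on control and 40.6 ± 3.15 CPM on elt-2 RNAi in N2 (-0.47 ± 0.081, adjusted p = 2.09e-05) and was at 44.9 ± 5.32 and 45.3 ± 1.64 CPM in VC3201 (adjusted p = 0.825).

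The 7 fatty acid desaturases, which act on the products of these enzymes, split in direction. elt-2 RNAi raised 3 and lowered 3 in N2 and raised 3 and lowered 4 in VC3201, and cco-1 RNAi raised 3 and lowered 3 in N2 and raised 2 and lowered 3 in VC3201. The share of all genes called was 48% and 85.8% for elt-2 RNAi and 33.8% and 64% for cco-1 RNAi, so that the VC3201 counts are close to it. fat-7, a stearoyl-CoA desaturase, had 68.6 ± 1.1 CPM on control and 3.30 ± 0.177 on elt-2 RNAi in N2, and in VC3201 it went from 50.65 ± 4.3 to 0.0875 ± 0.0652 CPM. fat-3, the desaturase whose products elo-1 lengthens, rose from 52.5 ± 0.423 to 121 ± 7.78 CPM in N2 and from 63.5 ± 5.98 to 153 ± 3.8 in VC3201. fat-5, a palmitoyl-CoA desaturase, fell with cco-1 RNAi from 54.2 ± 2.48 to 7.63 ± 0.236 CPM in N2 and from 42.5 ± 3.32 to 2.31 ± 0.402 in VC3201, while elo-2, which uses the same substrate, rose.

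Across the 8 group means of log2(CPM + 1), elo-5 and elo-6 correlated with each other at r = 0.977 and with elo-9 at 0.889 and 0.926, and elo-7 correlated with elo-1 at 0.872 and with elo-5 at -0.833. pod-2 and fasn-1, the consecutive steps of synthesis, stood at 0.1. These are descriptions over 8 points that share the same libraries. Among 7790 other genes averaging 10 CPM or more, the gene most like elo-5 was fat-6, another stearoyl-CoA desaturase (r = 0.994), which went from 299.8 CPM in N2 control to 89.3 in VC3201 with both RNAi. elo-6 was most like mel-32 (0.994), ges-1 (0.992), the intestinal esterase of the intestine marker list, and ahcy-1 (0.991). That list of 10 did not move as 1: elt-2 RNAi raised 3 and lowered 7 in N2 and raised 4 and lowered 6 in VC3201. cco-1 RNAi, which lowered elo-6, raised 4 and lowered 3 of the list in N2 and raised 7 and lowered 1 in VC3201. elo-1 was most like C36E8.1 (0.97) and the desaturase fat-4 (0.966), and elo-2 was most like plin-1 (0.847), the worm perilipin of lipid droplets, daf-21 (0.841) and pcyt-1 (0.828). For elo-7 these were T14G10.8 (0.995), spe-41 (0.989), which is in the sperm marker list, and F14B8.5 (0.988). pod-2 was most like ipgm-1 (0.942), fasn-1 most like lin-17 (0.955), elo-3 most like alh-11 (0.982) and elo-9 most like F52C12.2 (0.991).

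The authors' deposited tables include a list of genes raised by cco-1 RNAi, and pod-2 and elo-2 were the 2 of the 9 genes in it. Both were also among the 517 genes that the authors' deposited tables give as ELT-2-dependent, and none of the 9 was among the 719 given as ATFS-1-dependent. Those lists were made from the same libraries, so that they are no independent evidence.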

How the data were processed

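RNA of whole worms was enriched for polyA, made into libraries and sequenced on a BGISeq500, per the labels' protocols. The submitters' processing notes name STAR 2.73a, edgeR 3.24.3 and build WBcel235 (ce11). How reads were assigned to genes, and by which annotation, is not given in the sources used here. What the authors deposited is CPM of 16927 genes. They had been quantile-normalized, as seen in the table: every column sums to 1000373, and sorted libraries agree within 1% at 52.6% of ranks. Differences in total RNA or library size are therefore not in the values, and a large change in very abundant genes shifts the others. Also deposited were log2 fold changes and p-values, which the key sheet credits to Limma-Voom; they are quoted for elo-7 and as gene lists.

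All 24 libraries were grouped by strain and RNAi from the labels, and no 2 held identical values. The 14561 genes averaging 1 CPM or more in some group were tested, and all 9 passed this filter. log2(CPM + 1) was fitted with limma 3.58.1 in R 4.3.3 with 1 mean for each of the 8 groups, leaving 16 residual degrees of freedom, and empirical Bayes moderation along an abundance trend. A gene was called, 2-sided, at a Benjamini-Hochberg adjusted p under 0.05 over all genes of a comparison. Errors of fold changes are SE, errors of levels SD (n = 3), and intervals are 95%. The procedure was tested on simulated data. No count model was used, since the table holds normalized values. Reads behind a low value were estimated from the order of tied values. Positions and exon lengths are from Ensembl release 115 on WBcel235. Sequences were not used here.

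The 9 genes, the pathway and marker lists and the tests were chosen with earlier results of these data known. Named are all 9 genes, the targeted genes, up to 3 called genes of a pathway list with the smallest p in a comparison, and the 3 most correlated genes of each member over group means. F41H10.3 and F56H11.2 were named because they overlap members. Alternatives were pseudocounts of 0.5 and 5, no filter, precision weights (vooma), the replicate number as a block, rescaling each library by the median of its ratios, fitting only the groups compared and leaving out each library.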

Additional observations from a re-analysis of the deposited data

Results flagged for a closer look

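The response to an RNAi differed between the strains, by the test of the difference itself in limma, for 8 gene and RNAi pairs. All were judged by log2 differences of response (VC3201 minus N2) with Benjamini-Hochberg adjusted p. For cco-1 RNAi this was fasn-1, at 0.238 (adjusted p = 0.0111), with 2 or 3 genes called under 5 of the alternatives and up to 4 when a library was left out, with a fall in 3 of 3 N2 libraries below control and means of 194 and 205 CPM in VC3201. For elt-2 RNAi the difference was upward for elo-7, at 1.73 (adjusted p = 2.09e-08), fasn-1, at 0.301 (adjusted p = 0.000617), elo-1, at 0.293 (adjusted p = 0.000737), and pod-2, at 0.235 (adjusted p = 0.00262). It was downward for elo-5, at -0.9 (adjusted p = 2.78e-08), elo-6, at -0.833 (adjusted p = 5.62e-08), and elo-9, at -0.655 (adjusted p = 8.03e-05). Of all genes, 72.8% were called in this interaction, and the median gene moved by -0.13, or by 0.06 after rescaling, where all 7 kept their direction and call, at 1.92 (elo-7), 0.52 (fasn-1), 0.52 (elo-1), 0.46 (pod-2), -0.68 (elo-5), -0.62 (elo-6) and -0.47 (elo-9). Marker genes differed in the same interaction (6 of 6 yolk genes and 8 of 8 oocyte genes lower, 8 of 8 sperm genes higher, 6 of 8 hypodermal and cuticle genes higher and 1 lower, 5 of 10 intestinal genes higher and 4 lower, 5 of 6 neuronal and 4 of 6 muscle genes higher), and their part was not tested.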

How the results depend on the processing

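Of 144 pairs of gene and comparison, 83 were called, and 63 of these kept direction and call under every alternative tried. Pseudocounts, the missing filter, precision weights, the replicate block and fits of only the groups compared lost none of the 83, rescaling lost 9 and leaving out a library lost 15. Of 61 pairs not called, 16 passed under some alternative, and 32 changed sign while called in neither setting. The difference between VC3201 and N2 in pod-2 on both RNAi turned from -0.196 to 0.028 after rescaling. The number of the 9 genes called for the interaction of cco-1 RNAi with strain was 1, and it was 3 with a pseudocount of 5, 3 with precision weights, 2 with the replicate block, 3 after rescaling, 2 with only the groups compared and 1 to 4 when a library was left out. For VC3201 against N2 on cco-1 RNAi it was 4, and 2 to 4 when a library was left out. The cause was not tested. No count of all genes moved by over 1.5 times. Calls in higher direction were 42.1% of all calls for the interaction of cco-1 RNAi with strain and 57.5% after rescaling, and 42.1% and 54% for elt-2 RNAi with strain. Same-numbered replicates showed no strong common deviation (r of -0.104 to 0.15 over 28 pairs of groups). This check cannot exclude a shared culture or batch, since each deviation was taken from a mean of only 3 libraries. With the replicate block, the elo-5 interaction of cco-1 and elt-2 RNAi in N2 (-0.32) passed at an adjusted p of 0.0399, elo-6 for cco-1 RNAi with strain (-0.26) at 0.0463 and fasn-1 for VC3201 against N2 on elt-2 RNAi (-0.11) at 0.0369. elo-7 rested on about 11 to 46 reads outside VC3201 with elt-2 RNAi, which limits the precision of its differences there.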
